A study of Mus musculus with 6 samples.

Results

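Keratins of simple epithelia and vimentin, 7 genes of the 31055 measured, were followed through single EGFP-positive non-myocytes of the mouse heart. The members are Krt7, Krt8, Krt18, Krt19, Krt14, Krt10 and Vim, taken by gene symbol. Hearts of C57BL/6 mice aged 3 to 6 months were perfused with collagenase, and sorted EGFP-positive cells were profiled on a droplet platform that counts unique molecular identifiers (UMIs). All mice, controls included, carried Wt1CreERT2 and Rosa26mTmG, a reporter that turns on membrane EGFP where Cre has acted and in descendants of those cells. The control group held 3 libraries, and the 3 libraries called Dsp_het came from mice that in addition carried DspW/F, 1 floxed allele of Dsp beside a wild-type allele. The labels do not give the time of Cre activation or the number of animals in a library, so p-values measure the spread between libraries only.

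Intermediate filaments are rope-like polymers of the cytoplasm. Keratin filaments are built from a type I and a type II chain in equal parts, and Krt8 with Krt18 is the basic pair of simple epithelia, to which Krt7 (type II) and Krt19 (type I) are added. Vimentin forms filaments alone and is the usual intermediate filament of fibroblasts, endothelium and leukocytes. The mesothelium, of which the epicardium is the cardiac sheet, is known for carrying keratins and vimentin in the same cell. Desmoplakin, the product of Dsp, links intermediate filaments to desmosomes, the spot junctions between cells.

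The 4 simple keratins lie in the mouse keratin clusters, on GRCm38 with GENCODE vM21 annotation. Krt7 spans chr15:101411043-101430313 on the plus strand, Krt8 spans chr15:101996698-102004482 on the minus strand, and Krt18 spans chr15:102028180-102032027 on the plus strand. Krt8 and Krt18 point away from each other across 23697 bp, with no other annotated gene wholly inside. Genes that reach into this stretch from outside were not looked for. Krt19 (chr11:100140810-100148665), Krt14 (chr11:100203162-100207548) and Krt10 (chr11:99385254-99389364) lie on the minus strand in the type I cluster, and Vim spans chr2:13573927-13582826 on the plus strand. An annotated gene on the opposite strand overlaps Krt7 (Gm671), Krt8 (Gm36026) and Krt10 (Gm11940), and the counting strand is not given in the sources used here. No stretch of 75 bases, the read length, in the last 500 bases of any member's transcripts occurred in the transcripts of another gene.

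Promoter windows are shown for the 3 keratins of chromosome 15, which had the same cell class in common, and for Vim, which was found in every class. They are RefSeq windows on GRCm38.p6 from 250 bases before to 50 bases after the annotated start, read 5′ to 3′ on the gene's strand, at chr15:101412153-101412452 (Krt7, plus), chr15:102004293-102004592 (Krt8, minus), chr15:102027966-102028265 (Krt18, plus) and chr2:13574061-13574360 (Vim, plus). The Krt7 and Vim windows lie wholly inside the GENCODE gene spans given above, downstream of the starts of those spans. Capitals mark motif letters, searched on both strands. The TATA box was searched as TATAAA. The GC box was searched as GGGCGG. The CCAAT box was searched by its letters, and the AP-1 site was searched as TGANTCA.
Krt7: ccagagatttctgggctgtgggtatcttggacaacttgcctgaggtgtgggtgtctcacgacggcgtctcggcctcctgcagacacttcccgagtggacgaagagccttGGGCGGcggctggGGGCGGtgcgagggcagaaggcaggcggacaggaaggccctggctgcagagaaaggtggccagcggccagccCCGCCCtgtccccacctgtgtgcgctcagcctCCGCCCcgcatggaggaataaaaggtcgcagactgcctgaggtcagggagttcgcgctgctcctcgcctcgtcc
Krt8: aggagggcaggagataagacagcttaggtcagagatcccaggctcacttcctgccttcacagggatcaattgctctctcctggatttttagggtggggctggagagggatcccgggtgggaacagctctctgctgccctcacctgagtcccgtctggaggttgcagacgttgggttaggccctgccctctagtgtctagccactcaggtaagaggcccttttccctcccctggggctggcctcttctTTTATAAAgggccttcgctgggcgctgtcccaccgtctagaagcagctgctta
Krt18: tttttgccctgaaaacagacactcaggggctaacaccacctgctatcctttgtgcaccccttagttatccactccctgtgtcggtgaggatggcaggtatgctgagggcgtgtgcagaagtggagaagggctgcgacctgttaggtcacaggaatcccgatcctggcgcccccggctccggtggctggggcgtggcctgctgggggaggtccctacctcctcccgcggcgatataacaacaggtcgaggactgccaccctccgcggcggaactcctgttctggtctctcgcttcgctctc
Vim: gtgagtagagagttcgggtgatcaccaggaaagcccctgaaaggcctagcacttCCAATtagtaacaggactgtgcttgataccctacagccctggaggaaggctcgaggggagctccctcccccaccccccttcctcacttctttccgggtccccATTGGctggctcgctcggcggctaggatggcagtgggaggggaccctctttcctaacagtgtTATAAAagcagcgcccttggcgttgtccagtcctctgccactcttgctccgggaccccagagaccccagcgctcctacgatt
The Krt7 window held 4 matches of the GC box and none of the other motifs. The Krt8 window held the TATA box on both strands, as 2 matches that overlap at -3 and -1 relative to the annotated start. The Krt18 window held none of the 4 motifs. The Vim window held 1 match of the TATA box, at -32, and 2 of the CCAAT box. Of 32851 promoter windows of the same length, 13.6% held the TATA box, 35.7% the GC box, 37.4% the CCAAT box and 7.81% the AP-1 site, so the 3 keratin windows had no motif of these in common.

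Library totals ranged from 7573157 to 17083660 UMIs. Of 18283 barcodes, 5092 were copies, second occurrences of a barcode whose UMIs lay mainly in another library, and they made up 17.3% to 48.9% of a library's barcodes. Copies were left out, and 12608 cells were kept (between 1054 and 2942 per library). The cells were clustered, and the clusters named, without the 7 members. The mesothelial-like class was 1 cluster of 585 cells with all 14 of its marker genes, led by Upk3b, Nkain4, Msln and Gpm6a, and it held 47, 47 and 92 cells in the control libraries and 231, 76 and 92 cells in the Dsp_het libraries. Although the source is labelled as derived from the epicardium, 10304 cells (81.7%) were endothelial-like, and 1129 were fibroblast-like, 217 macrophage- or monocyte-like and 191 pericyte-like. Smaller classes held 60 cycling cells, 26 cardiomyocyte-like cells and 96 cells with no name.

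Among these sorted cells, Krt7, Krt8, Krt18 and Krt19 were mesothelial genes. Of 2008 Krt8 UMIs, 99.1% lay in mesothelial-like cells, as did 98.7% of 3165 Krt18 UMIs, 98.7% of 1071 Krt7 UMIs and 97.5% of 7909 Krt19 UMIs. The level in mesothelial-like cells, in CPM (UMIs scaled to a common class total), was 1309 for Krt19, 531 for Krt18, 338 for Krt8 and 180 for Krt7. UMIs count molecules, so these levels are not divided by transcript length. Over the 6 libraries, Krt19 ranged from 1205 to 1468 CPM, Krt18 from 472 to 622 CPM, Krt8 from 295 to 375 CPM and Krt7 from 119 to 254 CPM, so none of the 4 ranges overlapped. Upk3b, a uroplakin and the leading marker of the cluster, stood at 2045 CPM, and Msln, which encodes mesothelin, at 1389 CPM in the same cells.

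**Figure D1:**
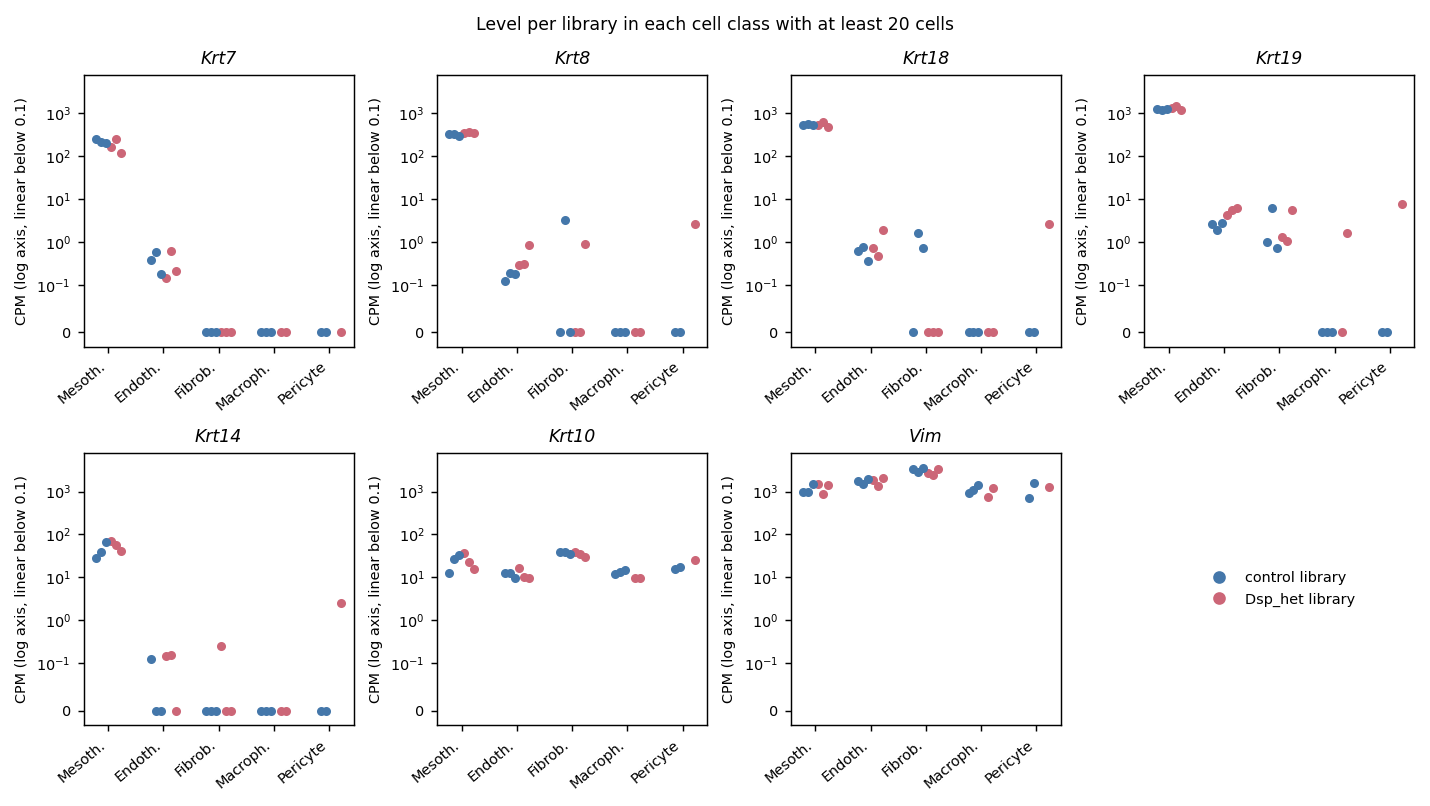
Level of each member in CPM (vertical axis, logarithmic, linear below 0.1) in the 5 cell classes (horizontal axis), 1 point for each library with at least 20 cells of the class, control in blue and Dsp_het in red. Krt19 sits between 1205 and 1468 CPM in mesothelial-like cells and at or below 7.67 CPM in every other class and library plotted, while Vim is above 720 CPM in all 5 classes.

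Outside the mesothelial-like cells the simple keratins were low but not all at the floor of detection. Krt19 stood at 3.67 CPM in endothelial-like cells (156 UMIs over 42501305), with 1.93 to 6.19 CPM in the 6 libraries, where 3 UMIs would be 0.274 to 0.619 CPM. In the same cells Krt18 stood at 0.706 CPM (30 UMIs), Krt7 0.329 CPM (14 UMIs) and Krt8 0.282 CPM (12 UMIs). Krt7 had no UMI in 1129 fibroblast-like cells, where 3 UMIs would be 0.334 CPM. Set against their mesothelial level, Krt19 was at 0.280% in endothelial-like cells and Krt18 at 0.133%, and the 14 mesothelial markers there ranged from 0.0777% to 9.58% with a median of 0.160%. Of 10304 endothelial-like cells, 10130 had no UMI of the 4 keratins, 163 had 1 or 2 UMIs and 11 had at least 3. In the cluster of cycling cells, 2 cells held 15 of the 16 simple keratin UMIs, and these cells also held a median of 31 UMIs of the mesothelial markers. The 26 cardiomyocyte-like cells held none, which at their 108781 UMIs allows up to 27.6 CPM. The 96 cells with no name held 17 simple keratin UMIs (12 of Krt19), which lay in 11 cells, and 1 cell had at least 3. Their Krt19 UMIs came from Dsp_het library 1 (5 UMIs in 56 cells, 10.9 CPM) and Dsp_het library 3 (7 UMIs in 28 cells, 417 CPM, where 3 UMIs would be 179 CPM), and the median depth of these cells in Dsp_het library 3 was 580.5 UMIs.

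Krt14, a type I keratin best known from the basal layer of the epidermis, was also mesothelial here but rare. Of 332 Krt14 UMIs, 327 (98.5%) were in mesothelial-like cells, at 55.6 CPM. Its usual type II partner in skin, Krt5, had no UMI in any kept cell. Of the 53 keratin genes in the matrix, 31 had no UMI and 13 had between 1 and 19. Besides the members, 3 keratin genes had at least 20 UMIs: Krt222 with 498, Krt80 with 102 and Krt79 with 36. Mesothelial-like cells held 1.00% of the Krt222 UMIs, 24.5% of the Krt80 UMIs and 11.1% of the Krt79 UMIs, and Krt80 was at 17.0 CPM in macrophage- or monocyte-like cells (42 UMIs).

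Krt10, a type I keratin of the upper layers of the epidermis, did not follow the other keratins. Mesothelial-like cells held 14.6% of its 1080 UMIs. It stood at 36.5 CPM in fibroblast-like cells (29.9 to 38.7 over 6 libraries), 26.8 CPM in mesothelial-like cells (12.3 to 37.6), 19.4 CPM in pericyte-like cells (15.8 to 25.6 over 3 libraries), 12.5 CPM in macrophage- or monocyte-like cells (9.47 to 14.9 over 5 libraries) and 11.7 CPM in endothelial-like cells (9.68 to 16.7). Fibroblast-like cells were above pericyte-, macrophage- and endothelial-like cells in every library, and the range of each other class overlapped at least 1 neighbour in this order. Compared within libraries, fibroblast-like cells were also above mesothelial-like cells each time. The gap was small in control library 3 (35.0 against 33.0 CPM) and Dsp_het library 1 (38.7 against 37.6 CPM). At 1500 UMIs per cell, drawn at random from each cell, 5.42% of 1106 fibroblast-like cells held a Krt10 UMI (95% Clopper-Pearson interval 4.17% to 6.93%, which covers counting error only), against 4.12% of 558 mesothelial-like cells (2.63% to 6.12%) and 1.75% of 9205 endothelial-like cells (1.49% to 2.04%).

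Vim was read in every class, and mesothelial-like cells were not its main source. They held 6.56% of the Vim UMIs, endothelial-like cells 63.1% and fibroblast-like cells 22.1%. Fibroblast-like cells had 2943 CPM (2410 to 3461 over 6 libraries), above endothelial-like cells with 1776 CPM (1351 to 2115) in every library. Pericyte-like cells followed with 1384 CPM (721 to 1621 over 3 libraries), mesothelial-like cells with 1333 CPM (876 to 1485) and macrophage- or monocyte-like cells with 1162 CPM (744 to 1418 over 5 libraries). The ranges of these 3 classes overlapped each other and that of the endothelial-like cells. Compared within libraries, each of the 3 classes was below the endothelial-like cells wherever it had at least 20 cells. Mesothelial-like cells read 1000, 996 and 1485 CPM against 1729, 1477 and 1998 in the control libraries. In the Dsp_het libraries they read 1485, 876 and 1435 CPM against 1870, 1351 and 2115. The 60 cycling cells stood at 4856 CPM and the 26 cardiomyocyte-like cells at 386 CPM, both pooled over libraries.

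Within the endothelial-like class Vim differed widely between clusters. The cluster led by AU020206 and Syne1 had 825 CPM and the cluster led by Cytl1 and Plvap 5012 CPM. The cluster led by Ccl21a and Serpina1b had 3374 CPM, and that led by Apln and Ift122 had 2719 CPM. Each of these last 3 clusters was higher in its lowest library (3475, 2762 and 2187 CPM, over 4, 6 and 6 libraries) than the cluster led by AU020206 and Syne1 in its highest (1012 CPM). The clusters were formed on the same cells, so the differences are descriptions with no test. The AU020206 cluster was also shallow, with a median of 1748 UMIs per cell against 3668 for all endothelial-like cells.

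**Figure D2:**
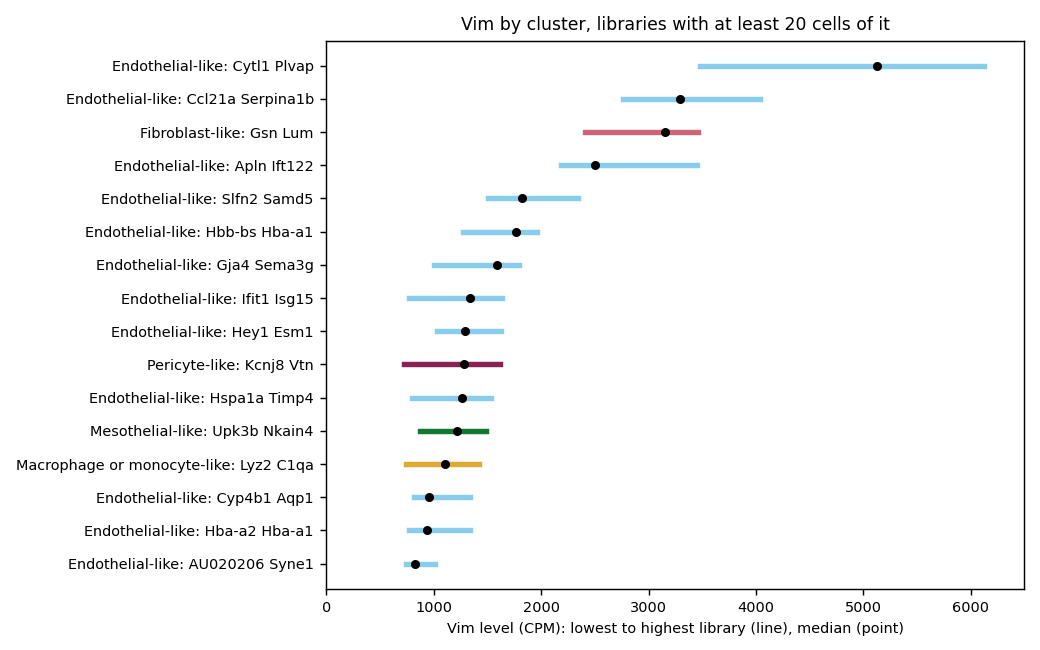
Vim level in CPM (horizontal axis) in each cluster, named by class and its leading 2 genes (vertical axis). Lines run from the lowest to the highest library with at least 20 cells of the cluster, and points mark the median library. The mesothelial-like cluster (876 to 1485 CPM) lies in the lower part of the range, and the highest cluster, led by Cytl1 and Plvap, is endothelial-like.

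The genes whose pattern over the 20 clusters was most like that of a member were found by Pearson's correlation of log2(CPM + 10) among 7914 genes with at least 50 CPM in some cluster. Krt8 was most like Upk1b (r = 0.996), Muc16 (0.996) and Fgfbp1 (0.994), and Krt18 was most like Cyp2s1 (0.997), Fgfbp1 (0.996) and Clic3 (0.994). Krt19 was most like Krt18 (0.990), Cyp2s1 (0.986) and Tmem151a (0.986), Krt7 like Atp6v0a4, Calcb and Cxadr (0.998 to 0.999), and Krt14 like Chst4, A730046J19Rik and Wfdc2 (0.999 for each). Upk1b and Muc16 are markers of mesothelium, and a single cluster sets these values. Krt10 was most like Atf5 (0.940), Fam171b (0.922) and Ptov1 (0.914). Vim was most like the ribosomal protein gene Rpl4 (0.834), the elongation factor gene Eef1a1 (0.814) and Lmna (0.800), which encodes the nuclear intermediate filaments lamin A and C.

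Single mesothelial-like cells differed widely in keratin. A cell held a median of 18 UMIs of the 4 simple keratins and at most 237, and 577 of 585 cells (98.6%) held at least 1. The 8 cells without any had between 2094 and 22331 UMIs. At 1500 UMIs per cell, which left out 27 shallower cells, 76.3% of 558 cells held a Krt19 UMI, 52.7% Krt18, 35.3% Krt8, 18.6% Krt7, 5.56% Krt14 and 68.8% Vim. Without thinning these shares were 94.5%, 86.5%, 73.5%, 47.2%, 13.5% and 92.5%. In endothelial-like cells, with a median of 3668 UMIs against 9553, 1.22% of cells held a Krt19 UMI and 0.116% a Krt8 UMI.

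Most members spread more widely between cells than counting alone gives. At 1500 UMIs, the variance divided by the mean was 2.64 for Vim, 1.90 for Krt19, 1.85 for Krt7, 1.75 for Krt14, 1.49 for Krt18, 1.29 for Krt8 and 0.961 for Krt10, where counting alone gives about 1. At the same relative spread this ratio grows with the mean, so its order does not rank the members by spread. The means ran from 0.0412 UMIs for Krt10 and 0.0824 for Krt14 to 1.73 for Vim and 2.03 for Krt19. Cells of all libraries were pooled, so differences between libraries enter as well. Krt8 and Krt18, which pair in the filament, were found together in 22.2% of cells, and the product of their separate shares is 18.6%. Every other pair of the simple keratins was above its product too. Krt7 and Krt8, both type II, were found together in 8.24% of cells against 6.58%. The values were 11.6% against 9.82% for Krt7 with Krt18 and 15.2% against 14.2% for Krt7 with Krt19. They were 29.9% against 27.0% for Krt8 with Krt19 and 42.7% against 40.2% for Krt18 with Krt19. The pooled excess was thus not particular to Krt8 with Krt18. Taken library by library, the correlation of Krt8 with Krt18 over cells ranged from 0.0832 to 0.301. For every other pair of the simple keratins it was negative in the lowest library. Those lowest values were -0.110 for Krt7 with Krt8, -0.0370 for Krt7 with Krt18 and -0.0877 for Krt7 with Krt19. They were -0.194 for Krt8 with Krt19 and -0.228 for Krt18 with Krt19. The difference between pairs was not tested.

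Krt14 was concentrated in few cells. All 327 UMIs came from 79 of 585 mesothelial-like cells, 27 cells with at least 3 UMIs held 260 of them, and the 6 highest cells held 148. Cells with a Krt14 UMI were found in every library, 5, 3 and 18 in the control libraries and 22, 17 and 14 in the Dsp_het libraries. Their median depth was 10857 UMIs, and that of the cells without was 9255 UMIs. Krt7 was higher in the cells with Krt14 in 6 of 6 libraries, at 357 against 147 CPM pooled. Krt8 (511 against 306 CPM), Krt18 (658 against 507 CPM) and Krt19 (1633 against 1250 CPM) were each higher in 4 of 6 libraries, and Vim (1832 against 1241 CPM) in 5 of 6. The split was made after the values were seen, and in control libraries 1 and 2 it rests on 5 and 3 cells, so it has no test.

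**Figure D3:**
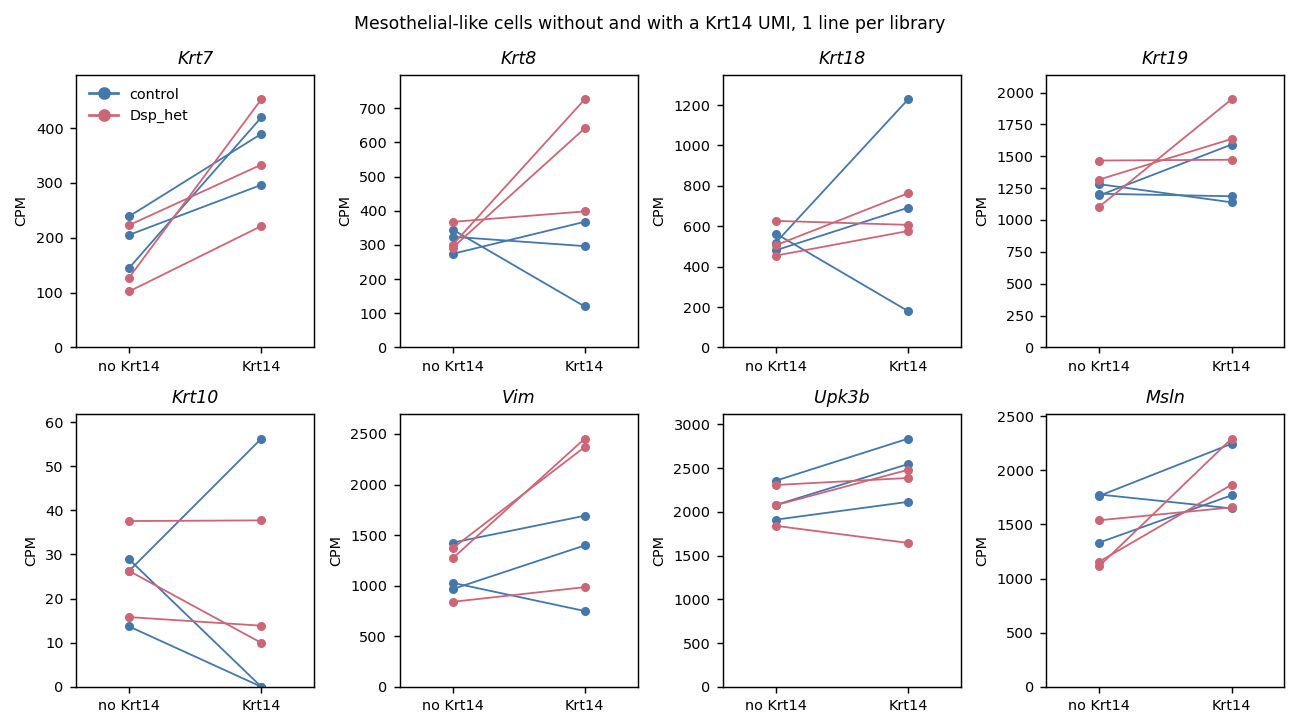
Level in CPM (vertical axes) of 8 genes in mesothelial-like cells without and with a Krt14 UMI (horizontal axes), 1 line per library, control in blue and Dsp_het in red. All 6 lines rise for Krt7, while Krt8, Krt18 and Krt19 have 4 rising and 2 falling lines each.

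Whether loss of a Dsp allele in this lineage changed the filament genes was asked inside the mesothelial-like cells, with counts summed per library and fitted with edgeR's quasi-likelihood test on all 8244 genes that passed the filter on low counts. Dsp itself, the targeted gene, had 64 UMIs there. Its normalized CPM was 12.5, 20.7 and 17.9 in the control libraries and 7.90, 7.69 and 9.96 in the Dsp_het libraries. Every Dsp_het library was below every control library, as for 4.10% of all genes tested, with a log2 fold change of -0.999 (SE 0.37, unadjusted p = 0.0170, adjusted p = 0.99998). Over all cells Dsp read 1.23, 2.17 and 2.22 normalized CPM against 1.25, 1.26 and 3.47, with overlapping groups. A read may lie outside the floxed exon, so this checks the labels only in part.

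None of the 7 members passed the test between genotypes in mesothelial-like cells, where 0 of 8244 genes (0%) passed an adjusted p of 0.05 and 267 (3.24%) had an unadjusted p below 0.05. DESeq2 called 0 genes too. The unadjusted p of the 7 members ran from 0.190 to 0.961, and the adjusted p was 0.99998 for each. In the fit, 5 members were higher and 2 lower in Dsp_het, and their median log2 fold change was 0.14, beside 0.00 for all genes, of which 50.8% were higher.

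Krt8, the type II chain of the basic pair, read 327.8, 319.7 and 302.2 normalized CPM in the control libraries and 361.6, 389.8 and 349.8 in the Dsp_het libraries. The groups did not overlap, as for 4.25% of all genes tested in that direction, and the log2 fold change was 0.22 (SE 0.16, unadjusted p = 0.190). Krt18, its type I partner, read 533.9, 565.3 and 541.8 against 555.1, 646.3 and 484.5, a log2 fold change of 0.04 (SE 0.16). The Dsp_het libraries of Krt18 lay on both sides of the controls.

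Krt19, the most abundant chain, read 1289, 1196 and 1314 normalized CPM in the control libraries and 1403, 1526 and 1256 in the Dsp_het libraries (log2 fold change 0.14, SE 0.15). Krt7 read 259.1, 210.2 and 211.7 against 170.9, 260.3 and 122.1, a log2 fold change of -0.31 (SE 0.23, unadjusted p = 0.205). Dsp_het library 2 had the highest Krt7 level of all and Dsp_het library 3 the lowest, so the groups overlapped. With 1 library left out the Krt7 value ranged from -0.61 (without Dsp_het library 2) to -0.08 (without Dsp_het library 3), with an adjusted p above the threshold each time.

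Krt14 read 28.1, 38.5 and 66.6 normalized CPM in the control libraries and 72.8, 57.7 and 42.5 in the Dsp_het libraries (log2 fold change 0.23, SE 0.29), and a single Dsp_het cell held 65 of its 129 UMIs in library 1. Without that library the value was -0.02, and without control library 3 it was 0.79. Krt10 read 12.5, 26.6 and 33.8 against 38.9, 23.1 and 15.9, a difference of -0.02 (SE 0.38). For both genes the spread within a group exceeded the difference between the groups.

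Vim read 1018, 988.6 and 1522 normalized CPM in the control libraries and 1538, 910.4 and 1473 in the Dsp_het libraries (log2 fold change 0.15, SE 0.21). Control library 3 and Dsp_het libraries 1 and 3 were high, and the other 3 were low, so the level separated libraries of both groups and not the genotypes. In endothelial-like cells the same 3 libraries were again the highest for Vim, with 2127, 1870 and 2089 normalized CPM against 1366 to 1668 in the other 3. Fibroblast-like cells did not keep this order. They read 3391, 3058 and 3551 normalized CPM in the control libraries and 2803, 2425 and 3357 in the Dsp_het libraries, so Dsp_het library 1 was below all controls there.

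**Figure D4:**
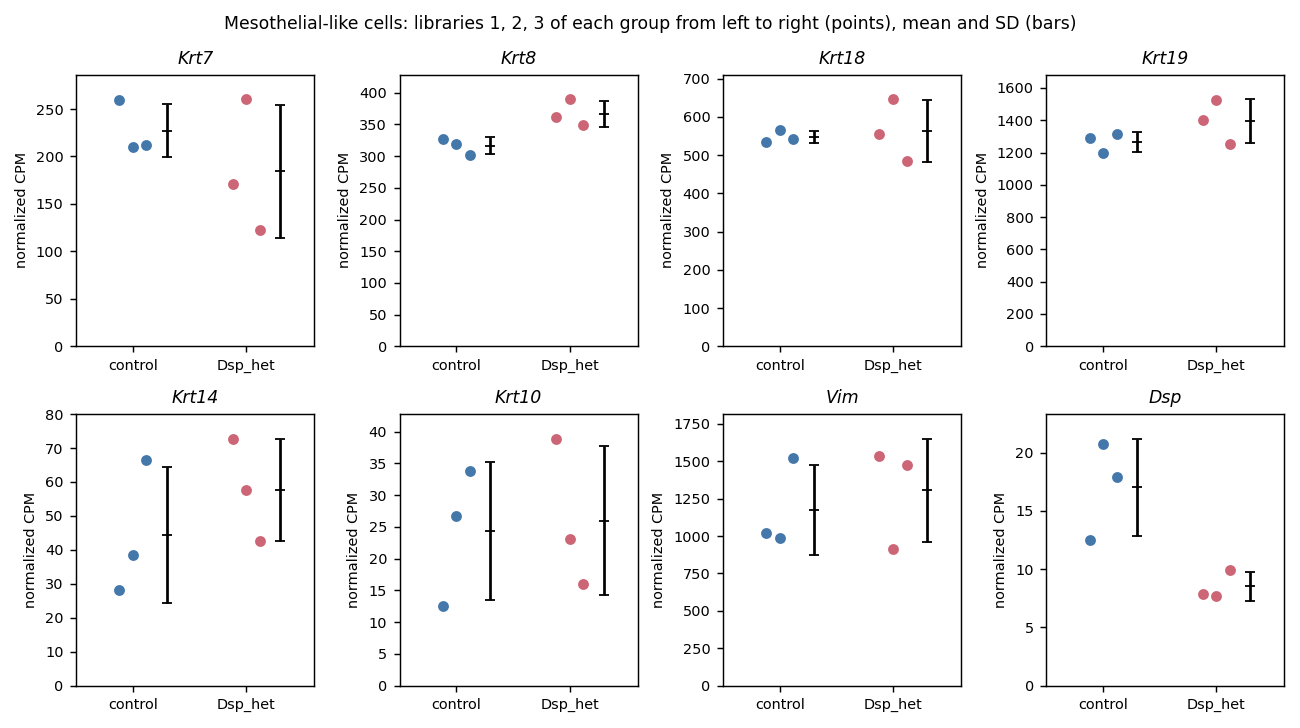
Normalized CPM (vertical axes, from 0) of the 7 members and of Dsp in mesothelial-like cells, with libraries 1, 2 and 3 of each group as points from left to right and the mean and SD of each group as a bar. The groups do not overlap for Krt8 and Dsp, and they overlap for the other 6 genes.

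The balance between chains was compared over libraries with an exact permutation test (two-sided), for which 0.1 is the smallest p at 3 against 3. The ratio of type II (Krt7 and Krt8) to type I (Krt18 and Krt19) UMIs was 0.322, 0.301 and 0.277 in the control libraries and 0.272, 0.299 and 0.271 in the Dsp_het libraries (exact permutation p = 0.2). Type I UMIs thus outnumbered type II UMIs in all 6 libraries. The ratio of Krt8 to Krt18 was 0.614, 0.565 and 0.558 against 0.651, 0.603 and 0.722 (exact permutation p = 0.2), and the part of Krt19 in the simple keratin UMIs was 53.5%, 52.2% and 55.5% against 56.3%, 54.1% and 56.8% (exact permutation p = 0.2).

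Simple keratin UMIs outnumbered Vim UMIs in the mesothelial-like cells of every library. The ratio was 2.37, 2.32 and 1.56 in the control libraries and 1.62, 3.10 and 1.501 in the Dsp_het libraries (means 2.08 ± 0.454 and 2.07 ± 0.891, SD, n = 3 each; exact permutation p = 1). The 3 libraries with high Vim had the low ratios. Cells with both a Krt8 and a Krt18 UMI at 1500 UMIs made up 16.7%, 20% and 24.7% of mesothelial-like cells in the control libraries and 18.1%, 32.0% and 25.3% in the Dsp_het libraries (exact permutation p = 0.4). The mesothelial-like share of a library's simple keratin UMIs was 96.1%, 96.9% and 98.3% against 98.7%, 97.9% and 97.9% (exact permutation p = 0.3).

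Over all kept cells of a library, as a bulk measurement would read them, the keratins stood higher in the Dsp_het libraries. Krt8 read 10.0, 16.1 and 21.2 normalized CPM in the control libraries and 50.5, 34.9 and 59.7 in the Dsp_het libraries (log2 fold change 1.61, SE 0.30, adjusted p = 0.141). Krt19 read 41.2, 60.6 and 93.8 against 198.4, 140.2 and 217.3 (1.504, SE 0.30, adjusted p = 0.151). For both genes every Dsp_het library was above every control library.

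The other keratins of the class behaved alike over all cells. Krt18 read 16.7, 28.4 and 38.1 normalized CPM against 77.8, 57.9 and 83.1 (1.39, SE 0.29, adjusted p = 0.151), Krt7 differed by 1.00 (SE 0.22, adjusted p = 0.166) and Krt14 by 1.56 (SE 0.54, adjusted p = 0.309). These 5 members had non-overlapping groups, as did 10.4% of the 12971 genes tested in that direction, and none passed the threshold in edgeR, where 0 genes (0%) did and 1627 (12.5%) had an unadjusted p below 0.05. DESeq2 called 372 of the 20016 genes it tested, among them Krt8, Krt18, Krt19 and Krt7 (adjusted p 1.77e-05, 0.000157, 2.2e-05 and 0.0101). Vim differed by 0.01 (SE 0.20) and Krt10 by 0.29 (SE 0.27), with overlapping groups.

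The share of a library's UMIs that came from mesothelial-like cells moved with these values. It was 3.197%, 4.91% and 6.76% in the control libraries and 13.99%, 9.28% and 17.79% in the Dsp_het libraries. All 14 mesothelial markers were higher over all cells too, with a median log2 fold change of 1.43 beside -0.01 for all genes. Within the mesothelial-like cells the 4 simple keratins differed by -0.31 to 0.22. Counted as cells, the mesothelial-like class made up 1.93%, 2.98% and 3.26% of the kept cells in the control libraries and 7.85%, 4.30% and 8.73% in the Dsp_het libraries, so the groups did not overlap. The median mesothelial-like cell held 6803, 6934 and 10692 UMIs in the control libraries and 8296, 11107 and 17394 in the Dsp_het libraries, and there the groups overlapped. Cells were sorted on EGFP, so the shares describe the sorted suspension, and they depend on leaving copies out. With copies kept, a mesothelial-like cluster held 159 control and 349 Dsp_het cells. Another, in which 90.9% of cells were copies, held 499 control and 570 Dsp_het cells. Shares per library with copies kept were not compared.

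**Figure D5:**
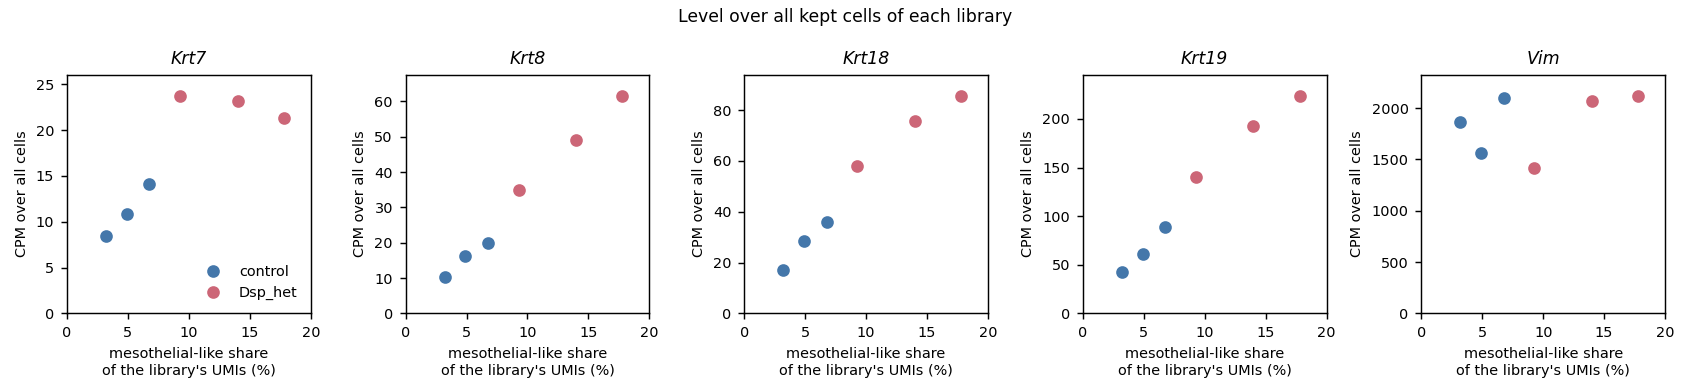
Level over all kept cells of a library in CPM (vertical axes, from 0) against the mesothelial-like share of the library's UMIs in percent (horizontal axes), 1 point per library, control in blue and Dsp_het in red. Krt8, Krt18 and Krt19 stand in the order of the share in all 6 libraries, Krt7 levels off near 21.3 to 23.7 CPM in the Dsp_het libraries, and Vim does not follow the share.

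In endothelial-like cells 3 members passed the filter on low counts. Krt19 read 2.49, 1.90 and 2.92 normalized CPM in the control libraries and 4.24, 5.56 and 6.11 in the Dsp_het libraries. The groups did not overlap, as for 4.33% of 11328 genes tested, with a log2 fold change of 1.07 (SE 0.29, unadjusted p = 0.00308, adjusted p = 0.725). In edgeR 0 genes (0%) passed and 520 (4.59%) had an unadjusted p below 0.05, and DESeq2 called 14 of the 17835 genes it tested. The 7 mesothelial markers that could be tested in these cells were all higher as well (median 0.47 beside 0.00 for all genes), and their part in the Krt19 value was not tested. Vim differed by 0.02 (SE 0.18) and Krt10 by 0.11 (SE 0.22) in endothelial-like cells. In fibroblast-like cells, where 1 of 8297 genes (0.0121%) passed, Vim differed by -0.22 (SE 0.15) and Krt10 by -0.07 (SE 0.21), and the other 5 members were too low to test.

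No member's genotype effect differed between classes past the threshold. Between mesothelial-like and endothelial-like cells, 8 of 11946 genes (0.0670%) passed, and the difference of effects was -0.91 for Krt19 (SE 0.25, unadjusted p = 0.00147, adjusted p = 0.400), 0.14 for Vim (SE 0.14) and -0.18 for Krt10 (SE 0.36). Between mesothelial-like and fibroblast-like cells, 1 of 9547 genes (0.0105%) passed, and the difference was 0.40 for Vim (SE 0.19, unadjusted p = 0.0481, adjusted p = 1) and 0.12 for Krt10 (SE 0.38).

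The proteins that anchor, modify or neighbour keratin filaments did not pass either in mesothelial-like cells. Of 16 plakin and desmosome genes 10 were testable, 7 higher and 3 lower, with a median log2 fold change of 0.08 beside 0.00 for all genes. The smallest p-values were those of Dsp and of Dsg2, a desmosomal cadherin, at 0.58 (SE 0.39, unadjusted p = 0.156). Of 15 other intermediate filament genes 4 were testable, and Lmna stood at 0.44 (SE 0.20, unadjusted p = 0.0446) and Synm, which encodes synemin, at -0.18 (SE 0.31). Of 14 keratin partners and modifiers 7 were testable, 5 higher and 2 lower. Ywhaz, a 14-3-3 protein, stood at 0.38 (SE 0.16, unadjusted p = 0.0323) and Dnajb6, a co-chaperone, at -0.20 (SE 0.16). All of these missed the threshold, with an adjusted p of 0.99998.

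Of 15 epithelial transcription factors 2 were testable in mesothelial-like cells. Klf4, a zinc finger factor of epithelial barriers, read 309.1, 408.5 and 311.1 normalized CPM in the control libraries and 412.9, 486.0 and 719.4 in the Dsp_het libraries. The groups did not overlap, as for 4.25% of all genes tested in that direction. The log2 fold change of 0.66 (SE 0.21, unadjusted p = 0.00668) missed the threshold after adjustment, and 3.24% of all genes had an unadjusted p below 0.05. Klf5 stood at -0.11 (SE 0.32). Of 15 genes of the epithelial to mesenchymal transition 9 were testable, 7 higher and 2 lower, with a median of 0.04, and the smallest p-values were those of the transcription factors Tcf4 at -0.29 (SE 0.27) and Zeb1 at -0.26 (SE 0.27). In the mesothelial-like cells, the 12 endothelial markers, none of them at 0, summed to 638 to 1948 CPM in the control libraries and 646 to 976 CPM in the Dsp_het libraries, and the 12 fibroblast markers, none at 0, to 9473 to 11401 CPM and 8981 to 11793 CPM. Single genes made up much of these sums. Dcn read 6822, 7687 and 6831 normalized CPM in the control libraries and 7077, 6417 and 7557 in the Dsp_het libraries, while Lum read 2.65 to 32.6. Fabp4 read 1084 normalized CPM in control library 3.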

How the data were processed

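The authors deposited raw UMI counts for 31055 genes and 18283 barcodes of 6 libraries, and the column sums of the matrix equalled the UMI totals deposited for all 18283 barcodes. The submitters' processing notes name GRCm38 and Seurat, and the sources used here do not state the aligner, the counting program or the strand setting. The barcode suffix gave the library, from the sample number in the labels.

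Each barcode was kept in 1 library, that with at least 0.5 of its UMIs, and 5092 copies and 11 occurrences without an owner were left out. Cells needed 500 UMIs, 200 genes and at most 20% mitochondrial UMIs. Scrublet in scanpy (1.11.5) called 53 of 12661 cells (0.419%) as doublets, so few that doublet removal has not worked, and the 53 were left out. Counts scaled to 10000 per cell, 2000 variable genes without the members, 30 components and 15 neighbours gave 20 Leiden clusters at resolution 1. Clusters were named from marker lists without the members.

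Sums per library and class (at least 20 cells) were fitted with edgeR (4.0.16) after TMM normalization and a filter at a minimum count of 10, without a replicate block, with Benjamini-Hochberg adjustment over all genes tested and a threshold of 0.05. DESeq2 (1.42.0) was the other tool. The fits were tested on simulated data. Class levels are descriptions, since the classes were formed on the same cells. Named genes were the members, Dsp, other keratins with at least 20 UMIs, up to 4 genes of a list that passed or else the 2 with the smallest p-values, and the 3 genes most like each member over clusters. The members and lists were chosen with earlier results of these data known. RefSeq promoter windows were found for 6 of 7 members, by symbol.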

Additional observations from a re-analysis of the deposited data

How the results depend on the processing

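No member changed sides of the threshold in mesothelial-like, endothelial-like or fibroblast-like cells under any alternative run, and over all cells Krt8, Krt18, Krt19 and Krt7 did, as given above for DESeq2. Krt8 over all cells also passed without a filter on low counts (1.61, adjusted p = 0.0429) and without Dsp_het library 2 (1.79, adjusted p = 0.0472), and its adjusted p ranged from 1.77e-05 to 0.489. With copies kept, the log2 fold changes in mesothelial-like cells were 0.11 for Krt8, 0.02 for Krt18, 0.07 for Krt19 and -0.36 for Krt7. Over all cells they were then 1.36 for Krt8, 1.30 for Krt19, 1.24 for Krt18 and 0.84 for Krt7, with adjusted p from 0.0711 to 0.0850 in edgeR.

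Counts of genes past the threshold moved most. Without a filter on low counts they were 41 in mesothelial-like cells, 60 over all cells, 132 in endothelial-like and 93 in fibroblast-like cells, and 76 and 44 for the difference of effects between mesothelial-like and endothelial-like or fibroblast-like cells. DESeq2 gave 372 over all cells, 14 in endothelial-like and 8 in fibroblast-like cells. Copies kept gave 5 over all cells, and 4 and 0 for the differences, as did the stricter cell filter (4 and 0), and without the highest doublet scores the second was 0. Leaving out 1 library at a time gave 0 to 5 in mesothelial-like cells (5 without Dsp_het library 2), 0 to 157 over all cells (157 without Dsp_het library 2), 0 to 11 in endothelial-like cells, 0 to 21 in fibroblast-like cells (21 without control library 2), and 0 to 24 and 0 to 2 for the differences. The cause was not tested.

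The replicate numbers did not pair the libraries: correlations of same-numbered libraries in mesothelial-like cells were 0.09, -0.00 and -0.07. With the number as a block, 3 genes passed in mesothelial-like, 11 in endothelial-like and 9 in fibroblast-like cells, and 0 over all cells.

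Directions reversed for several values that had not passed a test. The keratin to Vim ratio differed by -0.00742 between groups, and by -0.521 to 0.279 with 1 library left out (0.136 and 0.111 without control libraries 1 and 2, 0.220 and 0.279 without Dsp_het libraries 1 and 3). With 1 library left out, the share of mesothelial-like cells with both Krt8 and Krt18 UMIs differed by 1.2 to 8.18 percentage points. Krt10 in mesothelial-like cells became 0.014 with no filter, 0.039 with DESeq2, 0.14 with copies kept, 0.098 without the highest doublet scores, and -0.51 to 0.43 with 1 library left out, and Krt18 became -0.0016 without the highest doublet scores and -0.062 to 0.13 with 1 library left out. With 1 library left out, Krt14 there ranged from -0.019 to 0.79, Vim over all cells from -0.11 to 0.17, Krt10 from -0.13 to 0.46 and Dsp from -0.58 to 0.33, and in endothelial-like cells Vim ranged from -0.11 to 0.19 and Krt10 from -0.20 to 0.24. Krt10 in fibroblast-like cells ranged from -0.24 to 0.032, and its differences of effect from -0.42 to 0.40 and from -0.21 to 0.59. The share of mesothelial-like cells with a UMI differed at 1500 UMIs per cell by 0.438 percentage points for Krt7, 4.69 for Krt18, -2.17 for Krt19 and 6.12 for Vim. At 3000 UMIs per cell the differences were -1.70 for Krt7, -2.12 for Krt18 and -3.08 for Vim. With 1 library left out they ranged from -4.46 to 4.67 for Krt7, -0.875 (without Dsp_het library 2) to 9.59 for Krt18 and -4.57 to 0.166 for Krt19.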

Other observations

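The mesothelial-like cells with a Krt14 UMI differed from the others in further genes, picked after their values had been seen and so given without a test. Anxa8, which encodes an annexin, stood at 313 CPM in the 79 cells with Krt14 and at 50.5 CPM in the 506 cells without, and Slurp1, which encodes a secreted Ly6 family protein, at 490 against 94.0 CPM. Both were higher in 6 of 6 libraries. Fn1, the fibronectin gene, stood at 88.2 against 252 CPM and Enpp2, which encodes autotaxin, at 38.1 against 206 CPM, and both were lower in 6 of 6 libraries. Dmkn stood at 461 against 96.2 CPM and was higher in 4 of 6 libraries, and without Dsp_het library 1 it stood at 190 against 90.9 CPM. Without control library 3 Enpp2 stood at 21.8 against 220 CPM. Slpi (115 against 15.9 CPM) was higher in 5 of 6 libraries. The chemokine gene Cxcl13 was at 4.36 against 333 CPM, lower in 5 of 6 libraries. Its level in cells without Krt14 was uneven, at 1906, 6.41 and 405 CPM in the control libraries and 457, 29.5 and 9.02 CPM in the Dsp_het libraries. In control library 2 it was higher in the cells with Krt14 (42.4 CPM). Without Dsp_het library 2 Cxcl13 stood at 2.79 against 376 CPM, and without control library 1 at 4.52 against 235 CPM. These values with a library left out were computed after the data had been seen, and for the other genes of the split that are named no library left out moved the level in cells with Krt14 by more than 1.5 times. Upk3b, the leading marker of the cluster, was at 2187 against 2019 CPM, higher in 5 of 6.

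Sums of the cycling markers within the mesothelial-like cells were not even between libraries. The 7 cycling markers summed to 28.3 CPM in Dsp_het library 1, which held 231 of the 585 cells, and to between 2.47 and 5.96 CPM in the other 5 libraries. There 3 UMIs would be 9.20, 8.94 and 2.91 CPM in the control libraries, and 3.70 and 1.94 CPM in Dsp_het libraries 2 and 3. These sums are thus near the floor, and the number of cells that held the UMIs is not given here. The smooth muscle markers summed to 208, 50.7 and 46.6 CPM in the control libraries and to 164, 139 and 93.7 CPM in the Dsp_het libraries.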
